A study of Homo sapiens with 2 samples.

Results

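The 51 genes described here encode the machinery that carries a cell through mitosis: the kinases and cyclins that start it, the spindle checkpoint, the kinetochore, condensin, the spindle motors and the proteins of cytokinesis. They were chosen by name from what their products do, under a rule that uses no measured value. Earlier results of these data were known when the choice was made. All 51 had a row among the 37122 genes of the count table. RNA-seq compared Ramos, an established human line of Burkitt's lymphoma (BL), a B-cell tumour, with its derivative Ramos640, obtained by exposure to rising rituximab concentrations with 20% normal human serum as the source of complement, and so selected for resistance to rituximab-mediated complement-dependent cytotoxicity. Ramos640 cells received rituximab and serum every 21 days to keep the resistance, at a concentration that the sample labels give as 640 mg/mL and the methods as 640 μg/mL; no such treatment is given for Ramos. Both lines grew in the same medium with fetal bovine serum and antibiotics. RNA from 3 passages was pooled within each line before 1 library was made of it, so no difference between the 2 libraries has a replicate check, no p-value is given, and the time from the last rituximab dose to harvest is not given in the sources used here.

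The Ramos library held 38030090 reads and the Ramos640 library 30871826, and a count of 0 allows up to 3 reads, or 0.0789 and 0.0972 CPM (read counts scaled to library size). The log2 fold change is that of Ramos640 over Ramos after division by size factors of 1.14 and 0.876 and addition of 1, and its 95% interval (exact Clopper-Pearson) covers counting error only. All 8 B-cell markers examined were present in both libraries, with 692 to 69495 reads in Ramos and 362 to 82890 in Ramos640, and MS4A1, which encodes CD20, had 9654 and 1904. Markers of other cells were near 0: the 6 T-cell genes summed to 0.5 and 1.13 CPM, the 6 monocyte genes to 0.526 and 0.551 CPM, and the 5 epithelial genes to 1.13 and 0.518 CPM, with 4 of these 17 genes at 0 in both libraries. In bulk RNA, fewer cells in mitosis and less RNA per mitotic cell cannot be told apart.

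Mitotic genes are switched on late in the cell cycle, when the cell has copied its DNA. In resting cells the DREAM complex holds them silent through a short promoter element, the cell cycle genes homology region (CHR), often with CCAAT boxes upstream that bind NF-Y, and in G2 phase the proteins MYB-related protein B and FOXM1 take over at the same promoters. At mitosis CDK1 with cyclin B drives entry, the spindle checkpoint waits until each kinetochore is attached, and the anaphase-promoting complex then marks securin and cyclin B for destruction so that sister chromatids part and the cell divides. Burkitt's lymphoma cells, driven by MYC, divide very fast.

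Promoters of 6 members are printed to show these motifs in genes the results turn on: CCNB2 as a classical example, the sister genes CKS1B and CKS2 that differed in direction, and HMMR, ECT2 and SMC4, the 3 lowest members. Each stretch runs from 150 bases before to 50 bases after the transcription start, 5′ to 3′ on the gene's strand, taken from RefSeq (GRCh38.p14). Capitals mark CHR letters (TTTGAA or TTCGAA) and CCAAT boxes, on either strand.
CCNB2, chr15:59104996-59105195, plus strand: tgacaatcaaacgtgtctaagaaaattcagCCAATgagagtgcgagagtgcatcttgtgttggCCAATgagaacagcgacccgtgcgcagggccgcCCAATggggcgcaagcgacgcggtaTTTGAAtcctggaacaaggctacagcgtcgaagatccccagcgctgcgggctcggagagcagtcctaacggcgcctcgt
CKS1B, chr1:154974531-154974730, plus strand: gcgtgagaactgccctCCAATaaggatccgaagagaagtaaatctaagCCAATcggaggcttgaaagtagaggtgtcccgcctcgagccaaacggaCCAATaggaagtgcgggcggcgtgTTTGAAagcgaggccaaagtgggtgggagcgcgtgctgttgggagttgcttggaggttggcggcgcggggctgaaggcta
CKS2, chr9:89311045-89311244, plus strand: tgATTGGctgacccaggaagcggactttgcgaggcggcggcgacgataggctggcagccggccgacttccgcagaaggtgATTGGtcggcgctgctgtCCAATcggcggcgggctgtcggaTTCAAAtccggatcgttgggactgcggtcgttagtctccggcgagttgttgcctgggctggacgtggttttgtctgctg
HMMR, chr5:163460482-163460681, plus strand: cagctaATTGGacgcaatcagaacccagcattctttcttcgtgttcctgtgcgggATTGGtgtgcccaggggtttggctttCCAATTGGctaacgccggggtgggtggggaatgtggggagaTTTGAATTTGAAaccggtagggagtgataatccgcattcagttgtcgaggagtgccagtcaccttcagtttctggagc
ECT2, chr3:172750576-172750775, plus strand: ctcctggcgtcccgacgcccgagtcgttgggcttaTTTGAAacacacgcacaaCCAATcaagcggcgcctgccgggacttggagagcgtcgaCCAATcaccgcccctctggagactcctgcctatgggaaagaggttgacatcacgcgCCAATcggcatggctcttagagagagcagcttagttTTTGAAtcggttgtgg
SMC4, chr3:160399500-160399699, plus strand: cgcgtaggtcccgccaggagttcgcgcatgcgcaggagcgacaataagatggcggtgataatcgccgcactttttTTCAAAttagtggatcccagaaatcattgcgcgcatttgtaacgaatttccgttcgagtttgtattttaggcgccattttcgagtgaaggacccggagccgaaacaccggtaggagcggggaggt
In the CCNB2 stretch the CHR letters began 29 bases upstream of the start, with CCAAT boxes 54, 87 and 120 bases upstream. The arrangement in CKS1B was close to it, with the CHR letters 30 bases upstream and the nearest box 54 bases upstream. In CKS2 the CHR letters lay 29 bases upstream on the other strand and the nearest box 52 bases upstream. HMMR held the letters in tandem, while SMC4 held them 75 bases upstream on the other strand with no CCAAT box in its window.

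RefSeq windows (250 bases before to 50 after the start) were found for 44 of the 51 genes, without entries for AURKA, BUB3, TTK, UBE2C, BIRC5, TPX2 and FOXM1. CHR letters were in at least 1 window of 33 of these 44 genes (75%), against 19.5% of the 27305 genes of the promoter table and 15.4% of its 6633 genes with at least 500 reads in these libraries. CCAAT boxes were in 35 of the 44 (79.5%, against 39.7% and 45.3%), and 23 held a pair or more (52.3%, against 12.9% and 18%). Both motifs stood together in 26 (59.1%, against 9.02% and 8.65%). Between the libraries, the 33 genes with CHR letters had log2 fold changes from -0.82 to 0.23 with a median of -0.26, and the 11 without them had values from -0.40 to 0.17 with a median of -0.24, so the ranges overlapped. The 26 with both motifs had a median of -0.15. With the trend over transcript GC content subtracted, as described further on, the medians with and without CHR letters were -0.17 and -0.15. A match of letters is a description of the window and not a measured binding site. Only TTTGAA and TTCGAA were searched, so the lack of these letters does not show that a promoter has no such element.

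The mitosis genes were abundant in both libraries, and most were modestly lower in Ramos640. Together they held 313119 reads in Ramos, 0.823% of the library, and 215575 reads in Ramos640, 0.698%, which gives a log2 fold change of -0.157 for the sum (interval from -0.165 to -0.15). Their median log2 fold change was -0.24 with quartiles of -0.45 and -0.04, while the median over all 18778 genes with at least 10 reads was -0.02. All 51 passed the minimum of 10 reads, the shallowest being SPC24 with 927 reads in the 2 libraries together. In direction 39 of the 51 were lower and 12 higher, so that 76.5% were lower, against 51.2% of the 18778 genes and 50.7% of the 10154 genes with at least 500 reads. Scaled to total counts the split was 46 lower and 5 higher, but the median of all 18778 genes then moved down too, from -0.015 to -0.095. The share of all genes lower on that scale was not counted, so the shares above do not apply to this split.

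The steps were small. By the fold of 1.5 that the study used, 3 of the 51 were lower (ECT2, SMC4 and HMMR) and 1 was higher (UBE2C). Among all genes with at least 10 reads 17.3% were lower and 14.6% higher by this fold, and among those with at least 500 reads, the depth that all members reached, 9.53% and 7.47%, so the share of members past the fold was not above that of genes at large. The counting interval lay below 0 for 35 members and above 0 for 6, against 39.5% and 38.4% of the genes with at least 500 reads, and it included 0 for 10. At this depth the interval resolved differences far under 1.5-fold, and what it does not cover is the variation between cultures. Since log2 fold change went with the GC content of transcripts over all genes, values are also given with the GC trend removed, which subtracts the running median of protein-coding genes at the same GC content.

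**Figure D1:**
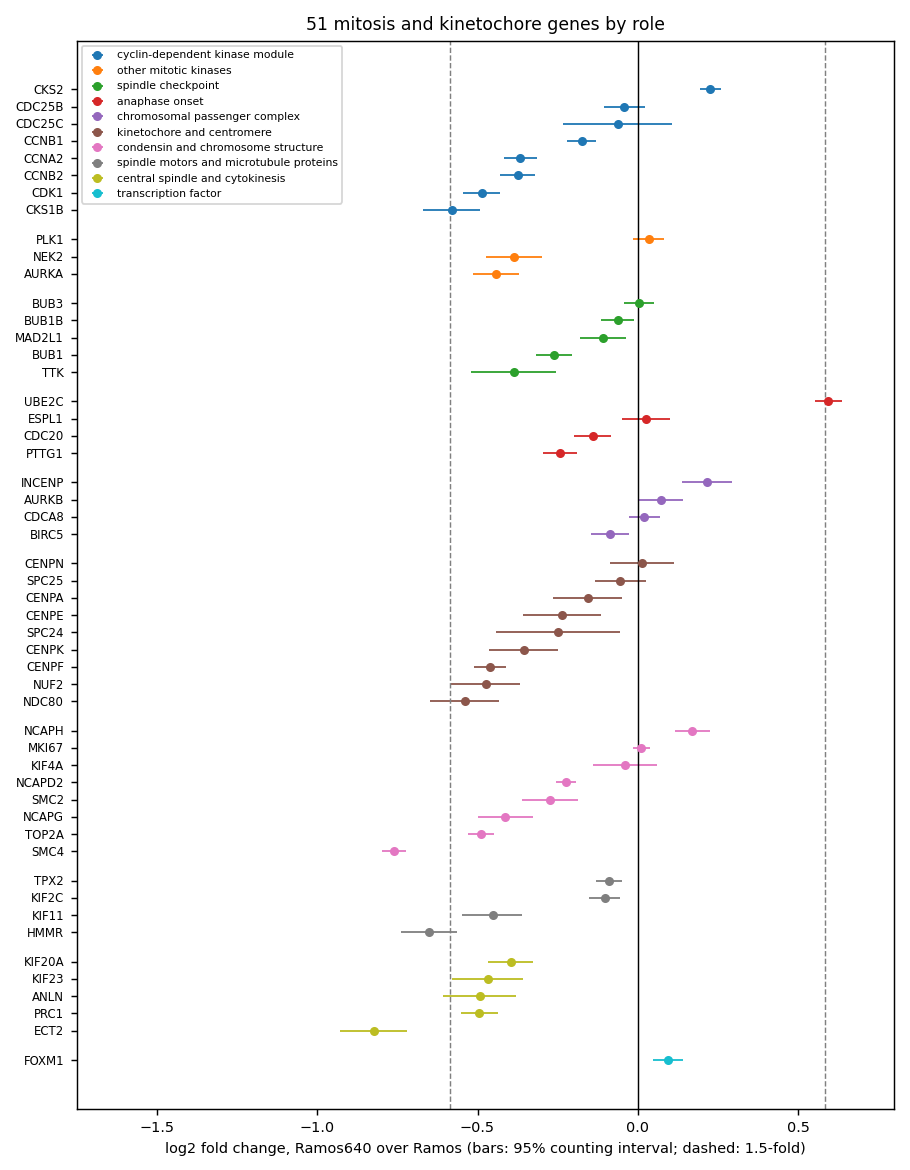
Log2 fold change of Ramos640 over Ramos (horizontal axis) for each of the 51 mitosis and kinetochore genes, coloured and grouped by role, with 95% counting intervals as bars and the 1.5-fold limits as dashed lines, from 1 library per line. ECT2, SMC4 and HMMR lie left of the lower limit, UBE2C lies at the upper one, and all 5 genes grouped here under central spindle and cytokinesis are below 0.

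Per transcript length, the levels kept nearly the same order in the 2 libraries. RPKM values (reads per kilobase of transcript, scaled to library size) were computed with the length of 1 representative transcript per gene, and across the 51 genes, which share both libraries, Spearman's rho between the libraries was 0.979. CKS2, a small adaptor subunit of cyclin-dependent kinases, was the highest, at 713 RPKM in Ramos and 789 in Ramos640. UBE2C, the ubiquitin-conjugating enzyme of the anaphase-promoting complex, followed with 268 and 383 RPKM. PTTG1, which encodes securin, had 269 and 215 RPKM, and so UBE2C and PTTG1, level in Ramos, were apart in Ramos640. In Ramos the B cyclins came next, CCNB2 with 128 RPKM and CCNB1 with 123. In Ramos640 CCNB1 (103 RPKM) followed PTTG1, and NCAPD2 (95.3) stood above CCNB2 (93.4). At the low end stood CENPE, the large kinetochore motor, with 4.27 and 3.43 RPKM, SPC24 of the NDC80 complex with 6.46 and 5.15 RPKM, and CDC25C, a phosphatase that activates CDK1, with 8.58 and 7.77 RPKM. TTK, the checkpoint kinase MPS1 (11.1 and 8.06 RPKM), and ANLN, the actin-binding protein anillin (9.93 and 6.68 RPKM), were low as well.

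**Figure D2:**
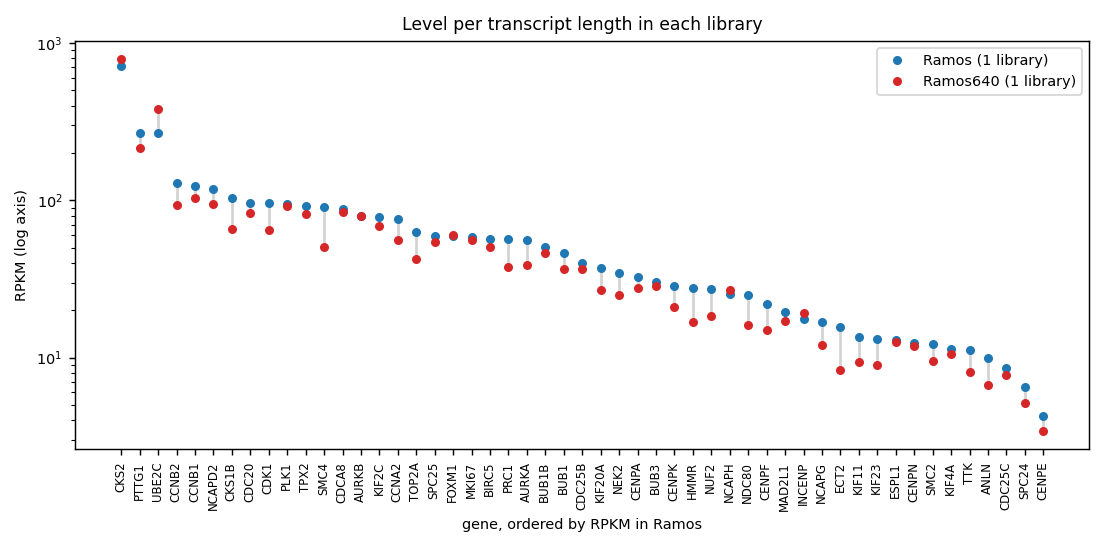
RPKM (log axis) of the 51 genes in the Ramos library (blue) and the Ramos640 library (red), ordered by the Ramos value, 1 library each and no replicate error. CKS2 leads in both libraries (713 and 789 RPKM) and CENPE is last in both (4.27 and 3.43), and red points lie under blue ones for most genes.

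In the module of CDK1, the kinase that triggers mitosis, 7 of 8 genes were lower in Ramos640 and the median log2 fold change was -0.27. CDK1 itself had 6927 reads in Ramos and 3797 in Ramos640 (-0.49, interval from -0.54 to -0.43). Its cyclins were lower by less, CCNA2 with 8002 and 4768 reads (-0.37), CCNB2 with 7242 and 4290 (-0.37) and CCNB1 with 9520 and 6477 (-0.17). The phosphatases that switch CDK1 on had intervals that included 0: CDC25B had 4713 and 3515 reads (-0.04) and CDC25C had 683 and 502 (-0.06). After removal of the GC trend the module's median was -0.13 and 6 of 8 were lower. CDK1 was then at -0.10, with CCNB2 (-0.30) and CCNA2 (-0.15) lower than it and CCNB1 at 0.04. CDC25B was at -0.24 and CDC25C at -0.03.

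The CKS genes encode closely related small proteins that bind CDK1, and they differed in direction. CKS1B had 3067 and 1575 reads (-0.58, interval from -0.67 to -0.49), just short of the 1.5-fold limit of -0.585 on this scale and past it with TMM factors (-0.59) or total counts (-0.66). CKS2 had 16692 and 14996 reads (0.23, interval from 0.195 to 0.258). Whatever the scaling, the ratio of CKS2 to CKS1B reads went from 5.44 in Ramos to 9.52 in Ramos640, a change of 0.81 on the log2 scale with a counting interval from 0.71 to 0.90. CKS1B has 7 pseudogenes in the table, with 5985 and 3262 reads in sum, more than the gene itself. The treatment of reads with several possible origins is not stated, so the level of CKS1B is uncertain, and with the pseudogenes added its log2 fold change was -0.52.

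Of the other mitotic kinases, AURKA, which matures the spindle poles, had 4298 and 2429 reads (-0.44, interval from -0.52 to -0.37), and NEK2, a centrosome kinase, had 2801 and 1645 (-0.39). PLK1, the polo-like kinase, was close to level with 7829 and 6156 reads, at 0.03 on the median-of-ratios scale and -0.05 with total counts. With the GC trend removed all 3 were lower, AURKA at -0.32, PLK1 at -0.17 and NEK2 at -0.15. The ratio of reads of AURKB, the relative of AURKA in the chromosomal passenger complex, to those of AURKA went from 0.877 to 1.25, a log2 change of 0.51 with an interval from 0.41 to 0.61, but the difference was 0.25 with the GC trend removed.

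In the spindle checkpoint, which delays anaphase until chromosomes are attached, 4 of 5 genes were lower and the median was -0.11. TTK was the lowest with 1256 and 738 reads (-0.39, interval from -0.52 to -0.25), and BUB1, a kinase at the kinetochore, had 6654 and 4262 (-0.26). BUB1B, which encodes the inhibitor BUBR1 (7090 and 5213 reads, -0.06), and MAD2L1, which encodes MAD2 (3862 and 2749, -0.11), were nearer to 0. BUB3, the partner of both BUB kinases, was level at 8819 and 6790 reads (0.00, interval from -0.04 to 0.05, and -0.08 with total counts). MAD2L1 has a pseudogene with 465 and 526 reads, and with it the interval of MAD2L1 included 0. The direction of the checkpoint group depended on the setting, and with the GC trend removed its median was 0.07 and 2 of 5 genes were lower, with TTK at -0.04, BUB1 at -0.05, BUB1B at 0.07, MAD2L1 at 0.20 and BUB3 at 0.24.

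The genes of anaphase onset split. UBE2C was the highest member of all 51 in log2 fold change, with 7926 reads in Ramos and 9190 in Ramos640 (0.59, interval from 0.55 to 0.64, 1.51-fold). It was the only member with more reads in the shallower Ramos640 library. Its place past the 1.5-fold limit hung on the setting, since it was 0.51 with total counts, 0.49 with the GC trend removed and 0.58 with the 271 and 247 reads of its 5 pseudogenes added. CDC20, which activates the same ubiquitin ligase, had 6073 and 4228 reads (-0.14, interval from -0.20 to -0.08), and the ratio of UBE2C to CDC20 reads went from 1.31 to 2.17 (log2 change 0.74, interval from 0.67 to 0.81). PTTG1, the securin that the ligase destroys, had 7321 and 4754 reads (-0.24), and ESPL1, the separase that securin restrains, was level with 3258 and 2545 (0.02). Once the GC trend was removed, CDC20 was at -0.34 and ESPL1 at -0.17, and 3 of the 4 genes were lower.

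The 4 genes of the chromosomal passenger complex were near their Ramos level, with a median of 0.05 and 3 of 4 higher, although with the GC trend removed the median was -0.08 and 3 of 4 were lower. INCENP, its scaffold, had 2736 and 2440 reads (0.22, interval from 0.14 to 0.29, and 0.04 with the GC trend removed). AURKB, its kinase, had 3769 and 3041 (0.07, interval from 0.002 to 0.141), and CDCA8, which encodes borealin, had 7907 and 6153 (0.02). BIRC5, which encodes survivin, was the lowest of the 4 with 5585 and 4035 reads (-0.09), also with the GC trend removed (-0.20). FOXM1, the forkhead factor that activates mitotic promoters, resembled this group with 8068 and 6618 reads (0.10, interval from 0.05 to 0.14), although the value was -0.05 once the GC trend was removed. The ratio of FOXM1 to CDK1 reads went from 1.16 to 1.74, a log2 change of 0.58 with an interval from 0.51 to 0.66, but the difference between the genes was 0.06 with the GC trend removed.

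Of the 9 kinetochore and centromere genes, 8 were lower, with a median of -0.25. The 4 subunits of the NDC80 complex, which grips microtubules, were unequal. NDC80 had 2011 and 1062 reads (-0.54, interval from -0.65 to -0.43) and its partner NUF2 had 2035 and 1124 (-0.47), whereas SPC25 of the other arm of the complex had 3049 and 2254 (-0.05, interval from -0.13 to 0.02) and SPC24 had 563 and 364 (-0.25). The ratio of SPC25 to NDC80 reads went from 1.52 to 2.12 (log2 change 0.49, interval from 0.35 to 0.62). CENPF, a large outer kinetochore protein, had 8562 and 4777 reads (-0.46), CENPK of the inner plate had 1881 and 1129 (-0.36), and CENPE had 1388 and 905 (-0.24). CENPA, the centromeric histone H3, had 1725 and 1188 reads (-0.16), and CENPN, which binds it, was level with 1844 and 1428 (0.01, and -0.07 with total counts). After removal of the GC trend 5 of the 9 were lower and the median was -0.14. SPC24 was then the lowest at -0.37, under NDC80 at -0.25 and NUF2 at -0.18, so the 2 arms of the complex no longer stood apart. CENPF was at -0.21 and CENPA at -0.14, while CENPE (0.14), CENPK (0.06), CENPN (0.14) and SPC25 (0.22) were above 0.

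Condensin shapes mitotic chromosomes, and the 8 genes of the group ran from -0.76 to 0.17 with a median of -0.25. SMC4, the ATPase subunit common to both condensins, had 17663 reads in Ramos and 8010 in Ramos640 (-0.76, interval from -0.80 to -0.72, 1.69-fold lower). Its partner SMC2 was lower by less, with 2743 and 1742 reads (-0.27). Among the subunits of condensin I, NCAPG had 2941 and 1696 reads (-0.41) and NCAPD2 had 21590 and 14196 (-0.22), but NCAPH had 5787 and 4998 (0.17, interval from 0.12 to 0.22). The ratio of NCAPH to SMC4 reads thus went from 0.328 to 0.624, a log2 change of 0.93 with an interval from 0.86 to 1.00, 0.65 with the GC trend removed, and the largest of the 12 pairs of members compared before that removal, which were picked with the values known. The 6 pairs not named with a ratio had log2 changes from -0.31 for CDK1 over CCNB1 to 0.35 for KIF2C over KIF11, and with the GC trend removed these pairs ran from -0.18 for SPC24 over NUF2 to 0.34 for CCNB1 over CCNB2. TOP2A, the topoisomerase that untangles sister chromatids, had 13537 and 7399 reads (-0.49). MKI67, which encodes the proliferation marker Ki-67 and had the most reads of all 51 genes, was level at 28322 and 21914 (0.01, interval from -0.01 to 0.04), and so was the chromokinesin KIF4A at 1909 and 1425 (-0.04, or 0.00 with the reads of its copy KIF4B added). With the GC trend removed the group's median was -0.07 and 5 of 8 were lower, with TOP2A at -0.21 and SMC2 at 0.04. NCAPD2, at -0.33, was then lower than NCAPG at -0.13, and NCAPH was at 0.22.

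All 4 genes of spindle motors and microtubule proteins were lower. HMMR, a hyaluronan receptor that also acts at spindle poles, had 3178 and 1553 reads (-0.65, interval from -0.74 to -0.56, 1.57-fold lower), and KIF11, the motor Eg5 that pushes the poles apart, had 2570 and 1441 (-0.45). KIF2C, a microtubule depolymerase, had 8534 and 6101 reads (-0.10), and TPX2, the activator of aurora A, had 12155 and 8766 (-0.09). All 4 were lower also with the GC trend removed, with a median of -0.16, KIF11 at -0.16 and KIF2C at -0.16.

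The central spindle and cytokinesis group had the lowest median of all role groups, -0.49, and all 5 of its genes were lower with the interval below 0. ECT2, the exchange factor that activates RhoA at the cleavage furrow, was the lowest of the 51 with 2452 reads in Ramos and 1063 in Ramos640 (-0.82, interval from -0.93 to -0.72, 1.77-fold lower). PRC1, which bundles the midzone microtubules, had 6600 and 3598 reads (-0.49), ANLN had 1787 and 975 (-0.49), KIF23, the motor of centralspindlin, had 1820 and 1010 (-0.47) and KIF20A, a midzone motor, had 4375 and 2551 (-0.40). With the GC trend removed the group's median was -0.41 and all 5 remained below 0, with PRC1 at -0.46, KIF20A at -0.41, KIF23 at -0.22 and ANLN at -0.21. Further genes that act in cytokinesis were counted in the list of other spindle and microtubule genes. Of these, RACGAP1 (3293 and 2448 reads, -0.05) and CIT (2817 and 2051, -0.08) had intervals that included 0. KIF14 (717 and 480, -0.20) and KIF20B (1524 and 908, -0.37) had intervals below 0. After removal of the GC trend RACGAP1 was at 0.05, CIT at -0.185, KIF14 at 0.11 and KIF20B at 0.02. In KIF20A the exons overlap those of BRD8 and CDC23 on the opposite strand, and the use of strand in the counting is not stated.

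The GC content of the transcript went with the change. Over the 10220 protein-coding genes that reached 100 reads, log2 fold change and GC content had a Spearman's rho of 0.432, and across the 51 members rho was 0.618 (Pearson's r 0.599), where all points share the same 2 libraries. The 17 members with the lowest GC content, 32.8% to 40.8%, were all lower, with a median of -0.46, while the running median of all protein-coding genes at their GC content was -0.30. The middle 17 had a median of -0.175 and the 17 with the highest GC content, 46.8% to 59.1%, a median of -0.04. The running median was -0.13 at the GC content of the middle 17 and 0.11 at that of the highest 17. With the GC trend removed, the median was -0.16 for the lowest 17 (12 below 0) and -0.05 for the middle 17 (10 below 0). For the highest 17 it was -0.17, with 15 below 0. ECT2 (36.3% GC), SMC4 (36.6%) and HMMR (36.3%) were all among the 17 of lowest GC content. After this trend was taken off, 37 of the 51 were still below 0 with a median of -0.15, but none was past 1.5-fold in either direction: ECT2 was at -0.48, SMC4 at -0.43, HMMR at -0.31, CKS1B at -0.51 and UBE2C at 0.49. Not all of the 10154 genes with at least 500 reads have a GC value. Those with one had a median of 0.02 after the removal. Of them 4479 were below 0, fewer than were above it, since the median was above 0. By 1.5-fold 650 were lower and 548 higher. How many genes have a GC value was not counted, so these counts give no share to set beside the members. The part of GC content in the differences was not tested. For transcript length rho was -0.041, and for the RPKM in Ramos it was 0.154.

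**Figure D3:**
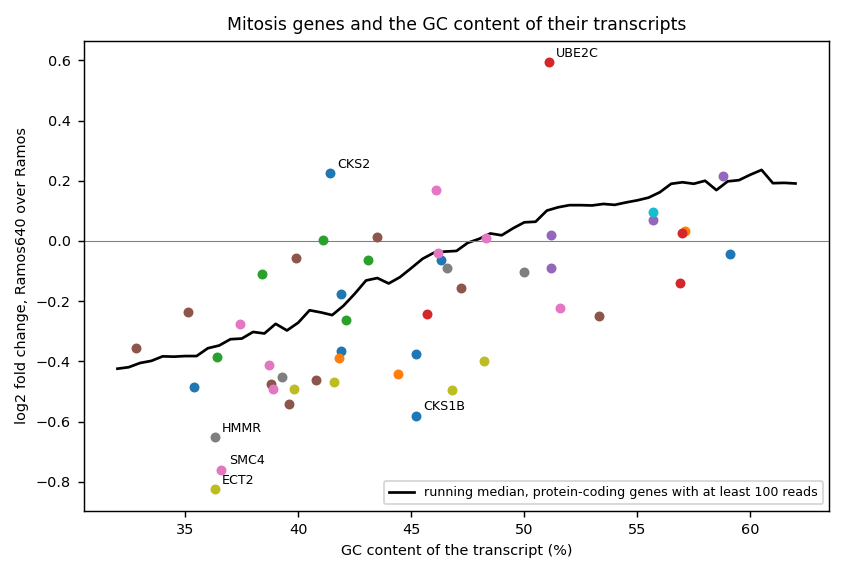
Log2 fold change of Ramos640 over Ramos (vertical axis) against the GC content of the transcript in percent (horizontal axis) for the 51 genes, in the colours of the plot by role, with the running median of protein-coding genes as a black line. The genes drop towards low GC content as the line does, most lie under it, and the 17 genes with the lowest GC content are all below 0.

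The 2 lowest members are both on the long arm of chromosome 3, and they are the only members on that chromosome. In GRCh37 coordinates SMC4 spans 160117062 to 160152742 of chromosome 3, and ECT2 spans 172468472 to 172539264. All of the 20 protein-coding genes nearest to SMC4 were lower in Ramos640, with a median log2 fold change of -0.67, and so were all of the 20 nearest to ECT2, with a median of -0.59. These 2 sets of neighbours share no gene. Around the other 49 members the median of the 20 nearest genes ran from -0.37 to 0.34. Between SMC4 and ECT2, all 19 protein-coding genes of that depth (100 reads or more) were lower, with a median of -0.60. With the GC trend removed the neighbours had medians of -0.41 around both genes. Across the 51 members, Spearman's rho between a gene and the median of its neighbours was 0.524, a description in which neighbourhoods also share GC content. SMC4 overlaps TRIM59 (1683 and 454 reads) and IFT80 (1515 and 545 reads) on the opposite strand, and both were lower than SMC4 in log2 fold change (-1.51 and -1.09). The part of the region in the lower counts of SMC4 and ECT2 was not tested. Without SMC4 and ECT2 the median of the members was -0.22.

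**Figure D4:**
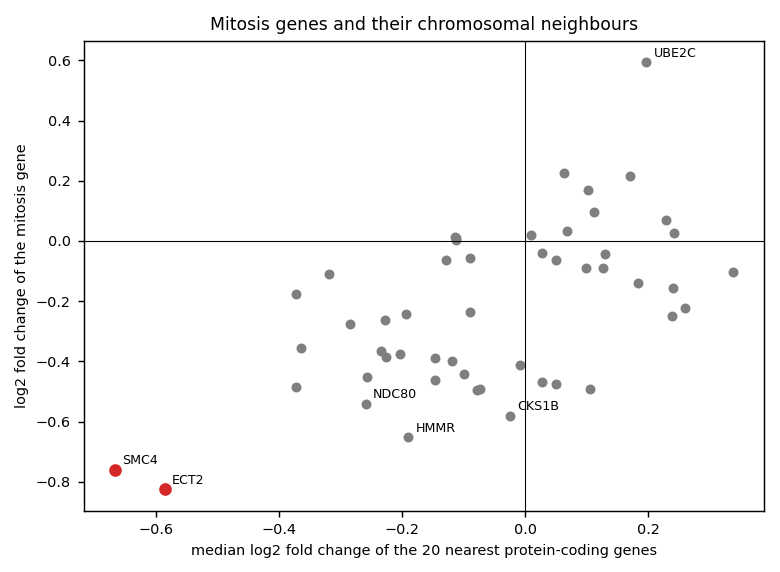
Log2 fold change of each of the 51 genes (vertical axis) against the median log2 fold change of its 20 nearest protein-coding genes (horizontal axis), 1 point per gene. SMC4 and ECT2 (red) stand alone at the lower left, with neighbour medians of -0.67 and -0.59, while HMMR and CKS1B are low beside neighbours with medians of -0.19 and -0.03.

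Other genes of the same machinery, from a list of 110 genes in 7 groups, were examined beside the members. Of these, 109 had at least 10 reads (CDC14B had none), 75 were lower and 34 higher, and the median log2 fold change was -0.19. By 1.5-fold 11 were lower and 3 were higher. Of all genes 17.3% were lower and 14.6% higher by this fold, and of those with at least 500 reads 9.53% and 7.47%. The median of the listed mitotic genes was -0.01 with the GC trend removed, and 57 of the 109 were then below 0. By 1.5-fold 5 of them were then lower and none higher. Among genes with at least 500 reads and a GC value, 650 were lower and 548 higher on that scale. Their total was not counted, so no share stands beside the listed genes here. The group of the anaphase-promoting complex held 15 genes, among them FZR1, UBE2S and FBXO5, which act with or on the complex and are not its subunits. Of the 15 genes, 5 were lower and 10 higher, with a median of 0.07. With the GC trend removed 2 were lower and the median was 0.17. The kinases, phosphatases and regulators (15 of 18 lower, median -0.26) and the spindle and microtubule genes (17 of 20 lower, median -0.21) were mostly lower, with medians of -0.16 and -0.15 with the GC trend removed. A list of 40 DNA replication genes, the step before mitosis, had 25 lower and 15 higher genes and a median of -0.14, between the members and all genes. With the GC trend removed 27 of the 40 were lower and the median was -0.09, under the -0.01 of the listed mitotic genes. These medians were not tested against each other, since 1 library per line allows no test.

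The largest differences of the mitotic machinery were outside the 51 members. HAUS1, a subunit of augmin that nucleates spindle microtubules, had 6657 reads in Ramos and 1155 in Ramos640 (-2.15, interval from -2.24 to -2.06). SKA1, which couples kinetochores to microtubule ends, had 2103 and 482 reads (-1.74, interval from -1.89 to -1.60). Both lie on the long arm of chromosome 18 of GRCh37, HAUS1 from 43684344 to 43708299 and SKA1 from 47901410 to 47920538, and all 12 protein-coding genes of 100 reads or more between them were lower by more than 1.5-fold, with a median of -1.61. NDC80, the single member on that chromosome, lies at its other end, from 2571556 to 2616634. NEK6, a mitotic kinase, had 425 and 139 reads (-1.23), CENPH, an inner kinetochore subunit, had 2410 and 905 (-1.03), and CKAP2, a spindle protein, had 3611 and 1480 (-0.91, and -0.58 with the GC trend removed). The neighbours of CENPH and CKAP2 were nearer to 0, with medians of -0.32 and -0.13. The 3 genes higher by 1.5-fold were E2F4, a subunit of the DREAM repressor (4518 and 5883 reads, 0.76), CENPT, an inner kinetochore protein (1168 and 1472, 0.71), and ANAPC2, the cullin subunit of the anaphase-promoting complex (2395 and 2792, 0.60), of GC content 59.0% for CENPT, 58.1% for E2F4 and 63.4% for ANAPC2, and none of the 3 was past 1.5-fold with the GC trend removed. RBL2, which encodes a pocket protein of the same repressor, was lower with 2727 and 1365 reads (-0.62). The subunits of the CCAAT-binding factor NF-Y differed in direction. NFYB had 1020 and 485 reads (-0.69, and -0.31 with the GC trend removed). NFYA (2125 and 1999, 0.29) and NFYC (1841 and 1748, 0.31) were higher with intervals above 0, and were at 0.33 and 0.21 with the GC trend removed. MYBL2, which encodes MYB-related protein B, had 27295 and 24757 reads (0.24, and 0.015 with the GC trend removed).

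**Figure D5:**
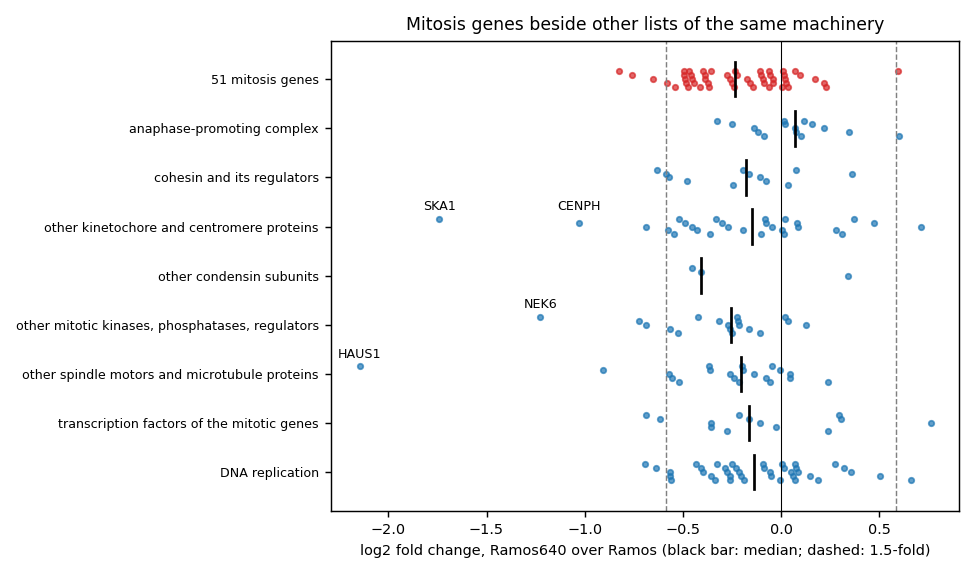
Log2 fold change of Ramos640 over Ramos (horizontal axis) for the 51 mitosis genes (red) and for 8 other lists (blue), 1 point per gene with at least 10 reads, medians as black bars and the 1.5-fold limits dashed. The mitosis genes have a median of -0.24 with quartiles of -0.45 and -0.04. The list of the anaphase-promoting complex has a median of 0.07, and HAUS1 (-2.15) and SKA1 (-1.74) lie farthest left.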

How the data were processed

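RNA-seq was made from 1 library of Ramos and 1 of Ramos640 cells. The authors removed adaptors from the Ion Proton reads, aligned them to GRCh37 with MapSplice and deposited raw read counts per gene. The counting program, its annotation, its use of strand and its treatment of reads with several possible origins are not given in the sources used here. Size factors from the median of ratios scaled the counts, with a pseudocount of 1 and a minimum of 10 reads. With 1 library per line no dispersion can be estimated, so no differential test was run. Counting intervals are exact (Clopper-Pearson, 95%), those for ratios of 2 genes are normal approximations on the log scale. TMM factors came from edgeR (4.0.16), other steps from Python (3.11.15) with SciPy (1.17.1), checked on simulated counts. Positions, transcript lengths and GC content came from GENCODE v44lift37 on GRCh37, which matched 83.9% of the genes with at least 10 reads and all 51 members. The GC trend was a running median over 501 genes. RPKM used the MANE Select or canonical transcript.

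The members and lists were chosen with earlier results of these data known. Members named in full are those past 1.5-fold, the 5 highest and lowest, the extremes of each role group and the 5 highest and lowest per length. Further members and all pairs were named after their values were seen. Of 41 replication genes, PRIM2 had no row under that name and was not analysed here. Protein sequences were not used here. The alternatives were TMM factors, total counts, pseudocounts of 0.1 and 10, minimums of 1 and 100 reads and removal of the GC trend. The background at 500 reads was added after seeing the data.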

Additional observations from a re-analysis of the deposited data

How the results depend on the processing

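The median of the 51 mitosis genes was below 0 under every alternative run, from -0.32 with total counts to -0.15 with the GC trend removed, and 37 to 46 of the 51 were lower in direction. For the changes below the cause was not tested. The log2 fold change of the summed reads (-0.157) was -0.167 with TMM factors and -0.238 with total counts, and a sum has no value with the GC trend removed. The 3 members lower by more than 1.5-fold became 4 with TMM factors, 5 with total counts and 0 with the GC trend removed, and the 1 higher member became 0 with TMM factors, with total counts and with the GC trend removed. The median of the other mitotic genes was -0.273 with total counts and -0.012 with the GC trend removed, and that of the replication genes was -0.22 with total counts. Of the 25 members named by rule, none moved beyond its counting interval with TMM factors and 15 did with total counts, where PLK1, BUB3 and CENPN, whose intervals included 0, lay below 0. With the GC trend removed 16 moved beyond it in the same direction or from an interval that included 0, and 3 with intervals that excluded 0 changed direction, CCNB1 (0.041), CENPE (0.138) and FOXM1 (-0.049). The median over all genes was -0.095 with total counts and -0.015 with the size factors used. The share of all genes lower by 1.5-fold was 17.3% with at least 10 reads and 9.53% with at least 500, a limit chosen after seeing the data. No paired analysis was possible because there was 1 library per line, and no replicate could be left out. Depth was not the limit for the members, the shallowest of which had 927 reads, but the spread between cultures is unknown.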
